A study of Mus musculus with 6 samples.

Results

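Oxidative phosphorylation subunits were taken from the gene table of an epithelial-mesenchymal transition model by symbol, as all Nduf subunits, the Sdh subunits of complex II, Uqcr genes, Cyc1 and Cycs, the Cox4 to Cox8 families, the Atp5 genes and the protein genes of mitochondrial DNA, without pseudogenes. The symbols gave 95 members of 17428 genes, 85 of them nuclear and 10 mitochondrial. The cells were EpH4, a near-normal mouse mammary epithelial cell line that is not derived from a tumour, in 3 stages with 2 biological replicates each, all in the same insulin-containing medium. E cells were untreated, M cells had received TGFβ1 for 7 days, and RE cells had then been kept without TGFβ1 for another 4 days. The model is 1 cell line, and no untreated culture kept for the same time as the M or RE cells is named in the sources used here. A few members are in the set by name only. Cox4nb (now Emc8) is no subunit, and Cox7a2l acts in the joining of complexes III and IV. Atp5s and Atp5sl (now Dmac2) are listed with complex V by name and are not counted as parts of the ATP synthase. Ndufa4 is listed with complex I here, as its name says, although the protein is now counted with complex IV. Ndufab1, mt-Nd5, mt-Nd4l and mt-Atp8 were not analysed here.

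Oxidative phosphorylation passes electrons from NADH (complex I) and succinate (complex II) through complex III and the soluble carrier cytochrome c to oxygen at complex IV, and the proton gradient built on the way drives the ATP synthase, complex V. Complex II is encoded in the nucleus alone, whereas complexes I, III, IV and V each combine nuclear subunits with a few core subunits encoded by mitochondrial DNA, so that both genomes have to supply parts of the same machine. Several complex IV subunits exist as pairs of isoforms, a common one and one best known from muscle, heart, lung or testis.

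Levels are given as normalized coverage, the sequenced bases of a gene as a share of those of its library, in ppm, after scaling between libraries. Libraries held 35782500 to 47928600 reads' worth of 50 bases. The floor was set at 3 reads of coverage, which is 0.0635 to 0.0781 ppm, and allows for counting error alone. In all, 90 members (80 nuclear and all 10 mitochondrial) had enough coverage to be tested with limma, while Cox6b2, Cox7b2, Cox8b, Ndufa4l2 and Ndufs5 did not. A member is said to have risen or fallen where its Benjamini-Hochberg adjusted p over the 13893 genes tested was below 0.05, and a DEG had to change by more than 1 on the log2 scale at an adjusted p below 0.01. In each comparison, a negative log2 fold change means lower in the second stage named. The p-values measure the spread between 2 cultures per stage. In bulk RNA, fewer cells of a kind and less RNA per cell cannot be told apart. Of 10 mammary epithelial markers, 9 were in the table, 7 of them were over the floor in all 6 libraries, with Krt5 and Krt19 below 0.5 ppm throughout. Their summed coverage was 3424 and 3077 ppm in E, 3551 and 3648 in M and 1458 and 1592 in RE, so that it was lowest in RE, where Krt7 was at 328 and 404 ppm against 1372 to 1586 in the other stages. The 4 macrophage and leukocyte markers in the table summed to 6.80 and 10.53 ppm in E, 33.1 and 36.8 in M and 7.27 and 7.43 in RE, of which Csf1r made up 25.8 and 29.9 ppm in M, while Ptprc, the pan-leukocyte marker, reached at most 0.0781 ppm and Emr1 at most 0.0971 ppm. The 3 endothelial markers summed to 0.306 and 0.180 ppm in E, 2.62 and 2.56 in M and 0.412 and 0.409 in RE, with Cdh5 at 0 in E and at 2.33 and 2.07 ppm in M. Adipocyte markers were each at or under the floor, and muscle markers summed to 0.607 to 3.28 ppm, highest in RE. The part of these shifts in the results on M and RE cells was not tested.

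More nuclear members were lower than higher in M and RE cells against E cells, and no mitochondrial member passed the test in either. In E vs. M, 23 of 80 nuclear members fell, 1 rose and 56 did not pass the test, where 19.9% of all genes tested fell and 21.5% rose. The median log2 fold change of the nuclear members was −0.47, a median ratio of 0.723, against 0.00 for all genes tested. Both M libraries lay below both E libraries for 51 of the 80 (63.7%, against 35% of all genes tested). From E to RE, 17 nuclear members fell and none rose (12.9% and 17.2% of all genes tested, respectively), with a median of −0.38, and both RE libraries lay below both E libraries for 54 of the 80 (67.5%, against 32.5%). In M vs. RE, 1 rose and 2 fell (17% and 14.6% of all genes tested), with a median of 0.05. DEGs were 2 lower members in E vs. M (8.39% of all genes tested), 2 lower in E vs. RE (3.17%) and 0 from M to RE, where 12.9% of all genes tested were DEGs. None of the 10 mitochondrial members passed the limma test in any comparison in the reported fit, and at an unadjusted p below 0.05 the count there was likewise 0 in each. Their medians were −0.11 from E to M, 0.15 from M to RE and 0.05 from E to RE. Both comparisons with the E cells use the same 2 E libraries.

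**Figure D1:**
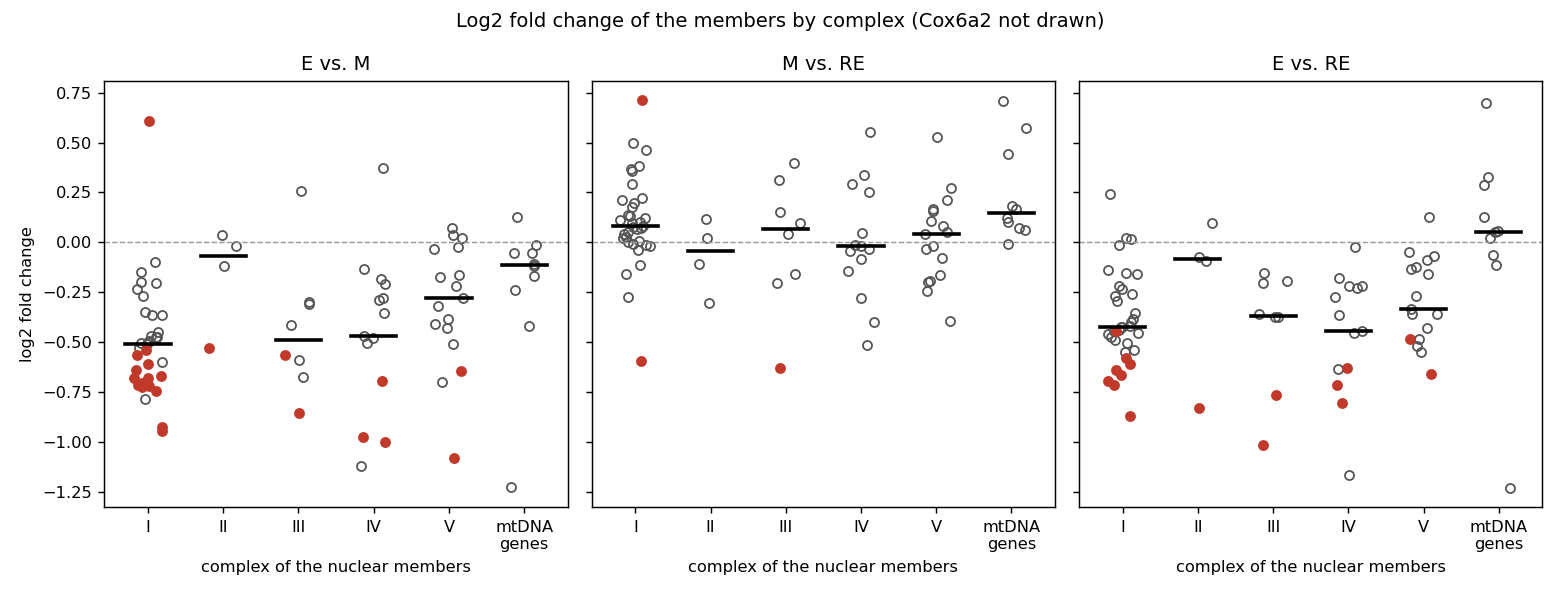
Log2 fold change (vertical axis) of the tested nuclear members by complex and of the mitochondrial members (mtDNA genes) in the 3 comparisons, with 1 point per gene, filled where limma's adjusted p was below 0.05, and a bar at the median. Cox6a2 (−4.47 in E vs. M and −4.48 in E vs. RE) and Cycs are not drawn; most points of complexes I, III, IV and V lie below 0 in E vs. M and E vs. RE, and most of those of mtDNA genes lie nearer to it.

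By complex, complex I, the NADH dehydrogenase, had a median of −0.51 in E vs. M, with 14 of 35 members lower, 1 higher and 20 that did not pass. Complex III had a median of −0.49 (2 of 8 fell) and complex IV of −0.47 (4 of 15 fell). The ATP synthase had −0.28 (2 of 17 fell) and complex II −0.07 (1 of 4 fell). Of all genes tested, 19.9% fell in E vs. M, and of these members 40% (I), 25% (II), 25% (III), 26.7% (IV) and 11.8% (V). In E vs. RE the medians were −0.42 (I), −0.08 (II), −0.37 (III), −0.44 (IV) and −0.33 (V). These medians are descriptions, and differences between complexes were not tested.

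The E libraries differed from each other in the nuclear members. E1 was above E2 for 75 of the 80 nuclear members and was the highest of all 6 libraries for 69, and the median log2 difference E1 minus E2 was 0.40, against 0.02 for all genes tested. The replicates of the other stages were closer, with median differences of 0.02 (M1 minus M2) and −0.05 (RE1 minus RE2). E2 alone lay above both M libraries for 51 nuclear members (63.7%, against 44% of all genes tested). Without E1, the median was −0.21 in E vs. M and −0.18 in E vs. RE, which is closer to 0 than with it. Without E1, 24 members were called in E vs. M (3 higher, 21 lower), as many as with it, while the share called of all genes tested went from 41.4% to 53.4%. Of the 24 called with E1, 21 kept their call, and Cox6a2 was no longer testable. In E vs. RE, 15 of 17 kept theirs, where the share of all genes went from 30.1% to 45.5%. Without E2 the count in E vs. M was 69 (63.0% of all genes), without M1 it was 5 (19.6%) and without M2 it was 3 (20.1%), so that counts of members and of all genes moved in the same direction in these 3 fits.

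**Figure D2:**
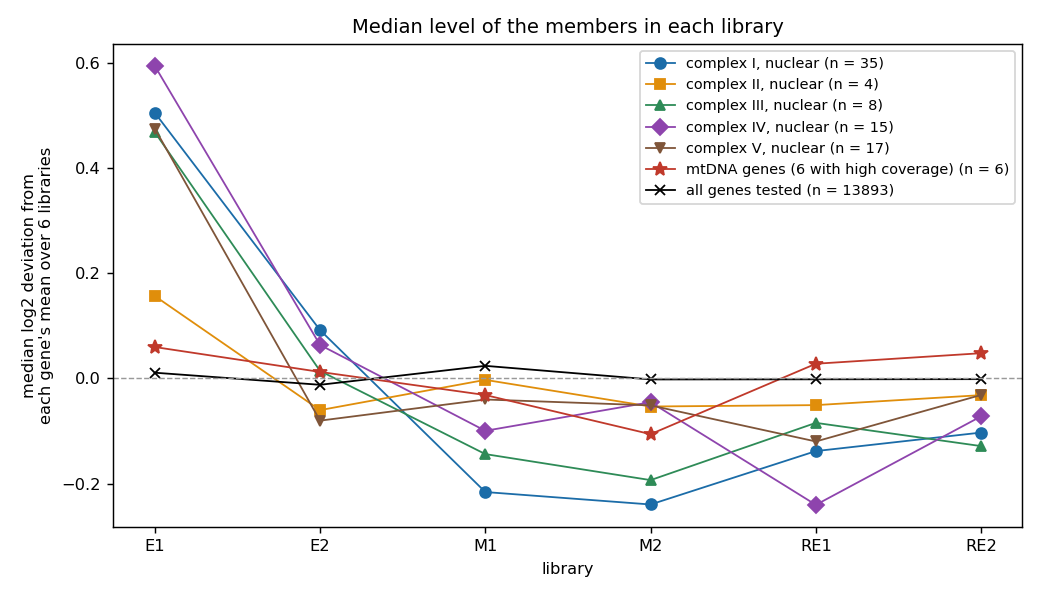
Median log2 deviation of the members of each complex from each gene's mean over the 6 libraries (vertical axis), by library, for nuclear members, for the 6 mitochondrial genes with high coverage and for all genes tested. Nuclear members of complexes I, III, IV and V were 0.47 to 0.59 above their mean in E1 and at most 0.24 from it in the other libraries, while complex II and the mitochondrial genes moved less.

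Nuclear members have short transcripts, and other short transcripts moved alike. Their median transcript length was 891.5 bases, against 2960 for all genes tested. Among genes under 1000 bases, the 735 that are no member had a median log2 fold change of −0.43 in E vs. M and of 0.36 for E1 minus E2, and the 44 nuclear members of this length −0.49 and 0.44. From 1000 up to 2000 bases, the values in E vs. M were −0.24 for 2751 other genes and −0.44 for 26 members. The share that fell in E vs. M was 32.4% of other genes and 29.5% of members under 1000 bases. From 1000 up to 2000 bases it was 27.0% and 38.5%, from 2000 up to 4000 bases 20.6% and 0%, and from 4000 bases 12.6% and 0%. In the medians, genes of 4000 bases or more that are no member went the other way (0.33 in E vs. M, −0.32 for E1 minus E2). The 3 nuclear members of that length did not follow them (−0.51 and 0.04), and the 7 from 2000 up to 4000 bases had −0.03 in E vs. M and 0.27 for E1 minus E2, against 0.01 and 0.05 for other genes. When each library's trend on transcript length and GC content was removed, the nuclear median went to −0.07 in E vs. M and −0.00 in E vs. RE, and E1 minus E2 to 0.16. The calls in E vs. M were then 11 lower and 6 higher, 8 of them calls that also stood before, with 44.5% of all genes called, and in E vs. RE 10 lower and 2 higher (6 in both), with 35.2% of all genes called. A loss shared by most nuclear members therefore cannot be told apart here from a difference of the libraries that goes with transcript length.

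**Figure D3:**
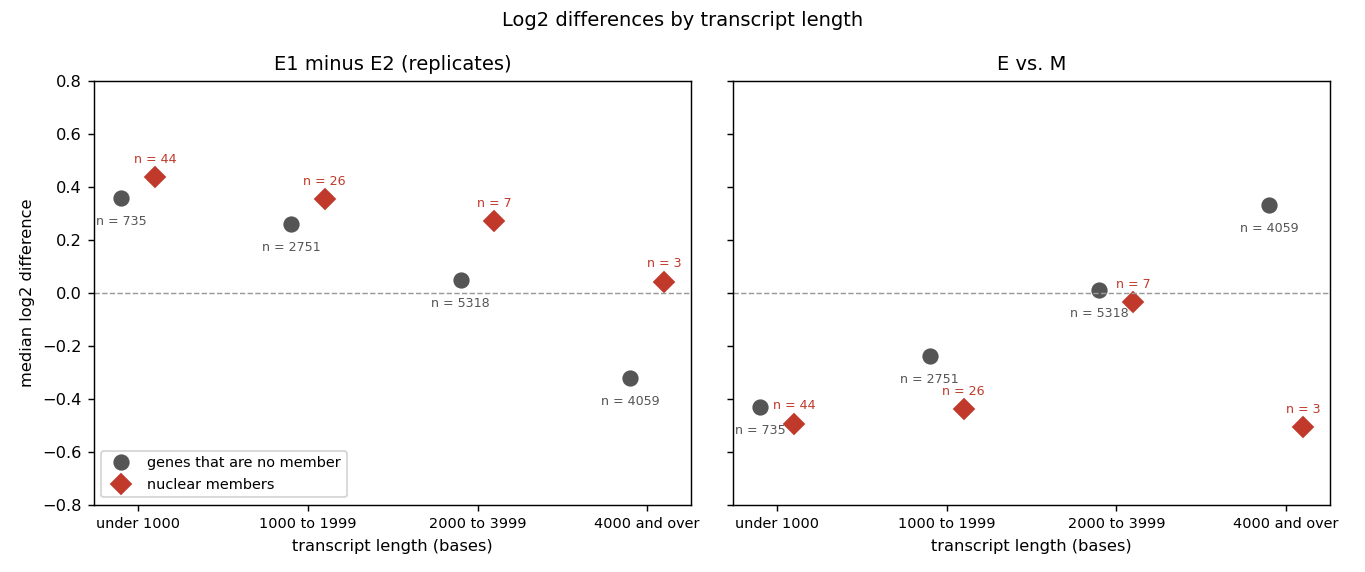
Median log2 difference (vertical axis) by transcript length for E1 minus E2, which are replicates, and for E vs. M, for nuclear members and for genes that are no member, with the number of genes beside each point. Genes under 1000 bases are high in E1 and low in M whether or not they are members, and those of 4000 bases or more that are no member go the other way, unlike the 3 members of that length.

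Among the members of complex I that fell, accessory subunits led. Ndufs6, an accessory subunit that binds zinc near the electron input arm, was at 59.2 and 46.8 ppm in E, 30.1 and 24.8 in M and 29.5 and 28.1 in RE. Both E libraries lay above the other 4. It fell in E vs. M (−0.94, SE 0.17, adjusted p = 0.00407) and in E vs. RE (−0.87, SE 0.17, adjusted p = 0.00913), but after removal of the length trend neither passed (−0.42, adjusted p = 0.0546, and −0.36, adjusted p = 0.1001). Ndufc1, a small subunit of the membrane arm, was at 22.3 and 15.7 ppm in E, 9.53 and 10.1 in M and 11.9 and 10.96 in RE. Again the E libraries stood above the rest without overlap. Its fall in E vs. M (−0.93, SE 0.20, adjusted p = 0.00846) and in E vs. RE (−0.71, adjusted p = 0.0322) also passed without the trend (−0.72 and −0.47). Ndufs4, needed for the late steps of complex I assembly, and Ndufa13, also known as Grim19, likewise fell in E vs. M with and without the trend (−0.71 and −0.59 for Ndufs4, −0.70 and −0.32 for Ndufa13). Ndufs4 and Ndufa13 were chosen after their values were seen.

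Of the 7 nuclear core subunits, 2 fell in E vs. M (28.6%), 1 rose (14.3%) and 4 did not pass. Of all genes tested, 19.9% fell and 21.5% rose. Ndufs7 and Ndufs8 were the 2 that fell, and both also fell in E vs. RE. With the trend removed neither passed in E vs. M (−0.24, adjusted p = 0.0955, and −0.26, adjusted p = 0.0651) or in E vs. RE. The core subunits Ndufs1 and Ndufv1 did not pass in E vs. M. Ndufs1, the largest iron-sulfur subunit, was at 334 and 260 ppm in E, 287 and 265 in M and 296 and 288 in RE, so that all stages overlapped except M and RE (E vs. M −0.10, adjusted p = 0.643). Ndufv1, which holds the flavin that takes electrons from NADH, was at 291 and 228 ppm in E, 204 and 197 in M and 192 and 199 in RE. Both E libraries were higher, but the difference did not pass (−0.36, SE 0.15, adjusted p = 0.0907 in E vs. M). Ndufv3, an accessory subunit of the same module, was at 41.1 and 29.2 ppm in E, 25.5 and 24.7 in M and 42.5 and 39.7 in RE. It was the 1 member that rose in M vs. RE in the reported fit (0.71, SE 0.18, adjusted p = 0.0221), with the RE libraries above both M libraries and overlapping with E. The call stood in the fit with the trend removed (0.72, adjusted p = 0.00406). That fit also called Ndufb10 (0.49), Ndufb11 (0.44) and Cox7a2l (0.55) higher in M vs. RE. It called 4 members lower, and 40.4% of all genes in either direction.

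In complex II, which joins the citric acid cycle to the chain, Sdhb fell and its partners did not pass. Sdhb, the iron-sulfur subunit, was at 211 and 193 ppm in E, 146 and 134 in M and 115 and 113 in RE, 3 ranges in falling order with no overlap. The fall was −0.53 in E vs. M (SE 0.13, adjusted p = 0.0138) and −0.83 in E vs. RE (SE 0.13, adjusted p = 0.00371), and M vs. RE did not pass (−0.30, adjusted p = 0.113). With the trend removed, only E vs. RE passed (−0.48, adjusted p = 0.0102). Sdha, the flavoprotein that oxidizes succinate, was at 353 and 323 ppm in E, 345 and 323 in M and 362 and 362 in RE. Its E and M libraries overlapped (−0.02 in E vs. M, adjusted p = 0.923). The membrane anchors Sdhc and Sdhd had log2 fold changes between −0.12 and 0.04 in the 3 comparisons.

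Complex III, the cytochrome bc1 complex, had members that moved in different stages. Uqcrq, a small subunit of the membrane part, was at 43.6 and 40.8 ppm in E, 22.8 and 23.7 in M and 19.4 and 22.4 in RE. The E libraries stood well above the rest and were close to each other, unlike those of most members. It fell in E vs. M (−0.85, SE 0.14, adjusted p = 0.00299) and was a DEG in E vs. RE (−1.01, SE 0.14, adjusted p = 0.00281). Cyc1, the cytochrome c1 that hands electrons to cytochrome c, was at 228 and 233 ppm in E, 163 and 150 in M and 130 and 142 in RE, again with close E libraries. It fell in E vs. M (−0.56, SE 0.13, adjusted p = 0.0106) and in E vs. RE (−0.76, adjusted p = 0.00504), of which only the second passed with the trend removed (−0.47, adjusted p = 0.0163). Uqcrc1, a core subunit on the matrix side, went another way, at 346 and 284 ppm in E, 399 and 351 in M and 248 and 236 in RE. M was highest and RE lowest with no overlap between any stages, and the fall in M vs. RE passed with the trend (−0.63, SE 0.15, adjusted p = 0.0171) and without it (−0.61). Uqcrfs1, the Rieske iron-sulfur protein, was at 205 ppm in E1 and 130 to 148 ppm in the other 5 libraries and did not pass in any comparison. Cytochrome c itself (Cycs) was listed at 0.188 to 0.484 ppm and did not pass.

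Complex IV, cytochrome c oxidase, had the member with the largest fold change. Cox6a2, the isoform of subunit VIa best known from heart and skeletal muscle, was at 1.83 and 3.04 ppm in the E libraries (3961 and 5831 bases), at 0 and 50 bases in the M libraries and at 50 and 0 bases in the RE libraries. Both M and RE libraries were under the floor, so that it was at least 33.4-fold lower in M and at least 35.7-fold lower in RE than in E. It was a DEG in both comparisons (adjusted p = 0.000153 and 0.000518), and the calls stood with the trend removed. It had enough coverage to be tested through the E libraries alone, so these calls add no support separate from those values. Its level was low even in E, and it could not be tested without either E library. The gene lies within Itgad on the opposite strand, with 70 bases exonic in both, and Itgad was at 0.1 and 0.602 ppm in E and at most 0.0243 ppm elsewhere. Of the muscle marker genes, Myh1 was at 1.08 and 0.576 ppm in E and reached 3.21 ppm in RE, where Cox6a2 was under the floor. Cox6a1, the common isoform, was at 91.6 and 75.4 ppm in E, 72.1 and 79.8 in M and 64.0 and 73.7 in RE. Its stages overlapped in E vs. M (−0.13, adjusted p = 0.517), and with the trend removed it was higher in M (0.43, adjusted p = 0.00898).

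**Figure D4:**
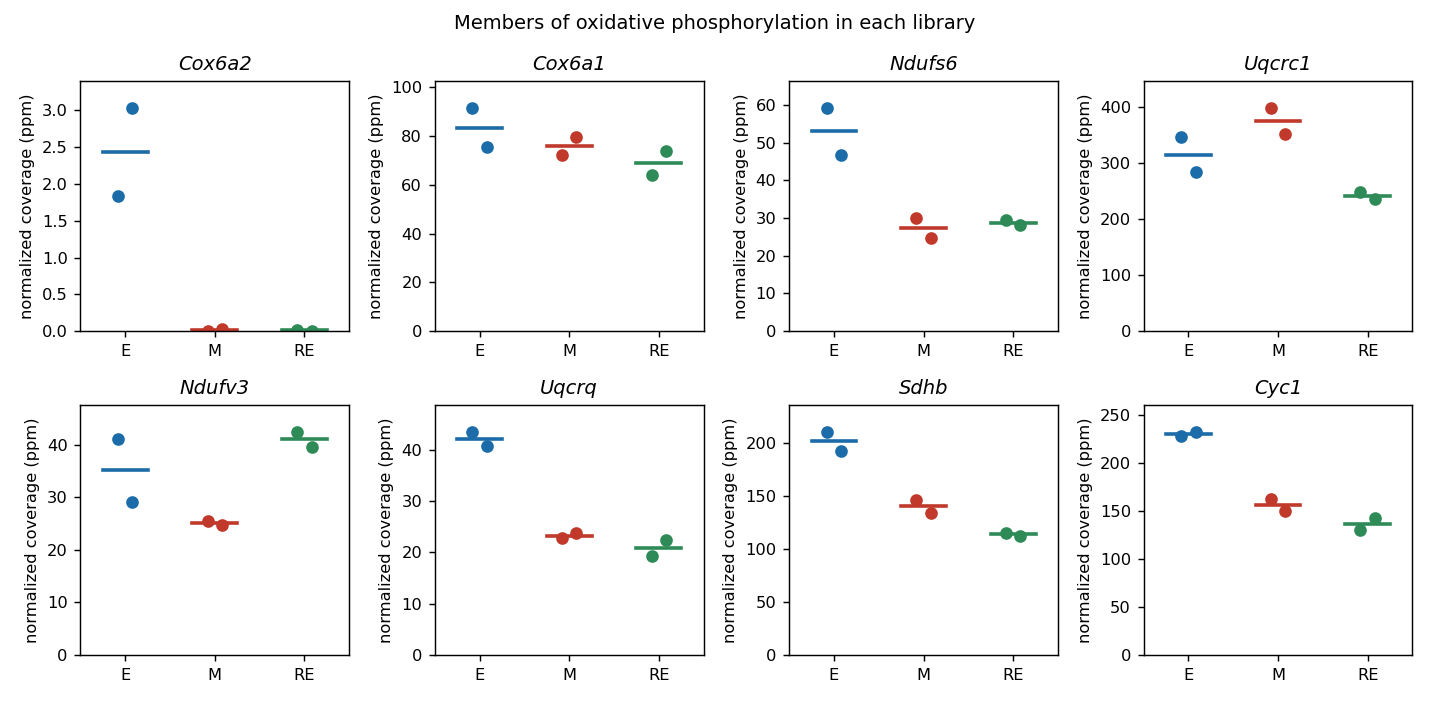
Normalized coverage (vertical axis, ppm, from 0) of 8 nuclear members in the 2 libraries of each stage (points) with the mean of the stage (bar). Cox6a2 is seen in E alone, Uqcrc1 is highest in M, Ndufv3 is lowest in M, and Ndufs6, Uqcrq, Sdhb and Cyc1 are highest in E; Cox6a1 overlaps between E and M.

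The other tissue isoforms were near the limit of detection. Cox4i2, the lung-type and oxygen-responsive partner of Cox4i1, was at 0.726 and 1.10 ppm in E, 0.368 and 0.451 in M and 0.518 and 0.564 in RE. Its E libraries were the highest, and it fell in E vs. M (−0.97, SE 0.31, adjusted p = 0.0408), a call that was lost with the trend removed (−0.50, adjusted p = 0.271). Cox4i1 was at 289 and 225 ppm in E and 218 to 227 ppm in the other 4 libraries, and did not pass (−0.18 in E vs. M, adjusted p = 0.366), except that with the trend removed it was higher in M (0.29, adjusted p = 0.0494). Cox7a1, a muscle isoform, was at 0.324 and 0.404 ppm in E and between 0.0483 and 0.188 elsewhere (−1.12 in E vs. M, SE 0.42, adjusted p = 0.069), where Cox7a2, the common one, was at 38.8 to 75.7 ppm and fell in E vs. RE (−0.63, adjusted p = 0.0406), but not with the trend removed (−0.19, adjusted p = 0.268). Cox6b2, Cox7b2 and Cox8b were at 168 bases or fewer in every library, while their common counterparts Cox6b1, Cox7b and Cox8a were at 26.9 to 54.7 ppm and did not pass. Ndufa4l2, a hypoxia-induced relative of Ndufa4, was at 0.0225 to 0.267 ppm, and Ndufa4 at 88.6 to 141 ppm.

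Elsewhere in complex IV, Cox7a2l and Cox5a changed in different stages. Cox7a2l, the supercomplex factor, was at 31.0 and 21.1 ppm in E, 13.6 and 11.99 in M and 19.6 and 18.0 in RE, with E above RE above M and no overlap. It fell in E vs. M (−0.999, SE 0.21, adjusted p = 0.00719), also with the trend removed (−0.68, adjusted p = 0.00807). Its recovery in M vs. RE was 0.55, which did not pass in the reported fit (adjusted p = 0.0778) but passed with the trend removed (0.55, adjusted p = 0.0234). Cox5a, a nuclear subunit on the matrix side, was at 120 and 85.3 ppm in E, 82.4 and 83.6 in M and 53.6 and 63.0 in RE. RE was lowest without overlap, and the fall in E vs. RE passed in both fits (−0.80, SE 0.18, adjusted p = 0.0166, and −0.39, adjusted p = 0.0315).

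The ATP synthase had the nuclear members with the most coverage, and these did not pass in E vs. M. Atp5b, the catalytic beta subunit, was at 2066 and 1694 ppm in E, 2001 and 1836 in M and 1419 and 1502 in RE. The M libraries lay between the E libraries, and the RE libraries were the lowest. In M vs. RE this difference did not pass in the reported fit (−0.39, SE 0.17, adjusted p = 0.119) but passed with the trend removed (−0.41, adjusted p = 0.0379). Atp5a1, the alpha subunit, was at 1159 and 982 ppm in E, 1079 and 1006 in M and 1011 and 1023 in RE, overlapping between all stages. Atp5j2, subunit f of the membrane part, fell in E vs. M (−0.64, SE 0.16, adjusted p = 0.0146) and in E vs. RE (−0.66, adjusted p = 0.019), from 110 and 84.0 ppm in E to 63.9 and 59.2 in M and 61.0 and 60.6 in RE. Both calls were lost with the trend removed. Atp5o, the stalk subunit that confers oligomycin sensitivity, fell in E vs. RE alone (−0.48, adjusted p = 0.0499), and this call too was lost with the trend removed (−0.08, adjusted p = 0.633). Atp5s, which lies outside the core enzyme, was a DEG in E vs. M (−1.08, SE 0.22, adjusted p = 0.00692). Its coverage was 4.58 and 3.76 ppm in E, 2.09 and 1.75 in M and 2.90 and 2.71 in RE. The call stood with the trend removed (−0.89).

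The mitochondrial members fell into 2 sets by coverage. Cytochrome b (mt-Cytb), the catalytic core of complex III, was at 2858 and 2939 ppm in E, 2891 and 2706 in M and 2938 and 2954 in RE. Its stages differed by less than 0.1 on the log2 scale (E vs. M −0.05, SE 0.16, adjusted p = 0.82). mt-Co1, the catalytic core of complex IV, was at 2984 and 2642 ppm in E, 2898 and 2675 in M and 2886 and 2931 in RE, overlapping in every comparison. The complex I subunits mt-Nd1, mt-Nd2, mt-Nd4 and mt-Nd6 had log2 fold changes of −0.24 to −0.05 in E vs. M and of 0.10 to 0.18 in M vs. RE. mt-Nd1 was at 2538 and 2281 ppm in E, 2147 and 1946 in M and 2195 and 2262 in RE, with M below the others, and did not pass (adjusted p = 0.278 in E vs. M). For 5 of these 6 genes both RE libraries lay above both M libraries (37.9% of all genes tested). mt-Nd6, the one protein gene on the other strand of mitochondrial DNA, overlaps mt-Nd5 by 14 bases and had the highest coverage per length of all members, 4671 ppm per kb, against 605 to 2518 for the other 5. With no strand information named, its reads and those of the opposite strand cannot be told apart.

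The remaining 4 mitochondrial members had little coverage. mt-Co2 was at 4.68 to 9.59 ppm, mt-Atp6 at 1.41 to 2.62, mt-Co3 at 0.541 to 1.32 and mt-Nd3 at 0.145 to 1.76. These genes share 98% to 100% of their 50-base stretches with other annotated genes of the reference, whereas mt-Nd1, mt-Nd6 and mt-Cytb share none, mt-Nd2 8.19%, mt-Co1 51.1% and mt-Nd4 62.2%. The authors mapped unique reads, and what part the sharing has in these low values was not tested. Without them the mitochondrial medians were −0.08 from E to M, 0.11 from M to RE and 0.04 from E to RE. Sharing was also high for nuclear members such as Atp5g2 (87.4% shared, 3.56 ppm per kb), Atp5l (84.8%, 1.96 ppm per kb) and Cox7c (53%, 2.35 ppm per kb), which were chosen after their values were seen. The median differed little by sharing, as the 51 tested nuclear members with under 10% shared had −0.47 in E vs. M and the 29 with more had −0.42.

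**Figure D5:**
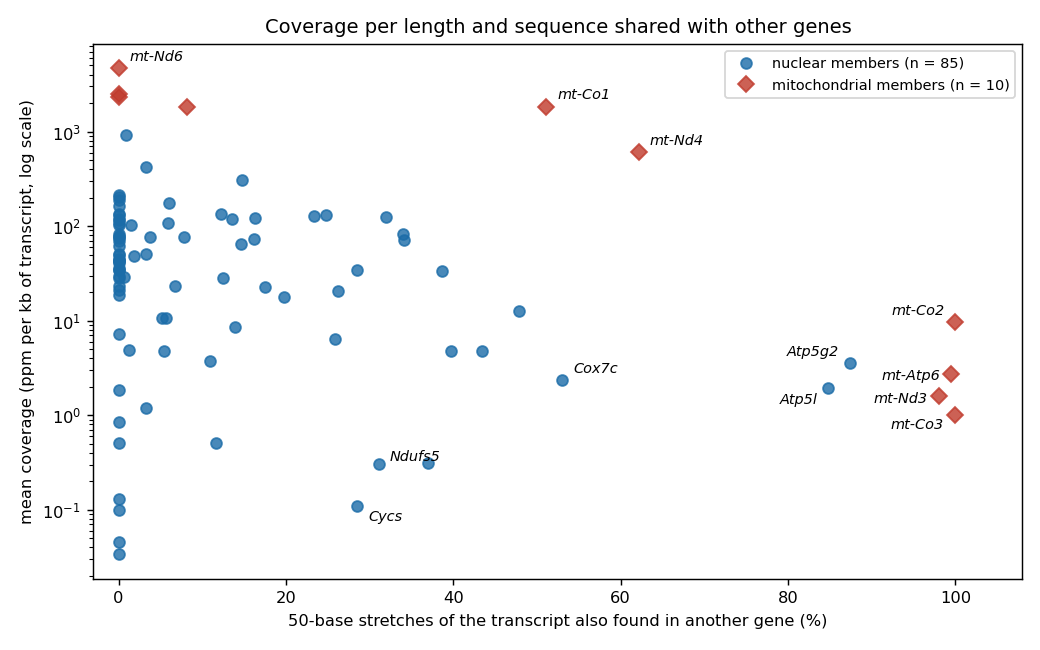
Mean coverage per length over the 6 libraries (vertical axis, ppm per kb of transcript, log scale) against the share of 50-base stretches of the transcript that also occur in another annotated gene (horizontal axis, %), for the 85 nuclear and 10 mitochondrial members. The 4 mitochondrial genes with 98% to 100% shared lie between 1.01 and 9.75 ppm per kb and the other 6 at 605 or more.

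In summed coverage, RE cells had the least from nuclear members and M cells the least from mitochondrial ones. Nuclear members summed to 10173 and 8038 ppm in E, 8327 and 7854 in M and 7291 and 7504 in RE. E1 was the highest, RE was the lowest, and M overlapped with E. Mitochondrial members summed to 13518 and 13054 ppm in E, 12917 and 12031 in M and 13356 and 13657 in RE, with M below the others. The ratio of the nuclear to the mitochondrial sum was 0.753 and 0.616 in E, 0.645 and 0.653 in M and 0.546 and 0.549 in RE, so that RE was lowest without overlap and E and M overlapped. Atp5b and Atp5a1 make up a large part of the nuclear sum. Atp5b alone went from 2001 and 1836 ppm in M to 1419 and 1502 in RE, and Atp5a1 from 1079 and 1006 to 1011 and 1023. The median log2 fold change of the nuclear members in M vs. RE was 0.05, so the lower sum in RE does not describe most of them.

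Genes that build or regulate the chain were read from lists of assembly factors, mitochondrial transcription factors, nuclear regulators, oxygen-responsive regulators and carriers. Of all genes tested, 19.9% fell and 21.5% rose in E vs. M, and 17% rose in M vs. RE. Of 8 complex I assembly factors tested, 4 fell and none rose in E vs. M (median −0.56), among them Ecsit (−0.66, adjusted p = 0.00616), and 2 rose in M vs. RE, Tmem126b (0.71, adjusted p = 0.0341) and Tmem186 (0.64, adjusted p = 0.0387). Of the 5 for complex III, 2 fell and 1 rose in E vs. M, led by Lyrm7, a chaperone of the Rieske protein (−1.36, adjusted p = 0.00435). Of the 11 for complex IV, 3 fell (27.3%) and none rose in E vs. M, with Surf1, whose loss causes Leigh syndrome, at −0.68 (adjusted p = 0.0126). The 1 complex II factor tested, Acn9, fell (−0.86, adjusted p = 0.007). None of the 4 genes listed for complex V passed the limma test in any comparison, and at an unadjusted p below 0.05 the only count above 0 was 2 in E vs. RE. Of 21 genes of mitochondrial transcription and RNA handling, 6 fell (28.6%) and 1 rose in E vs. M. Tfb1m, a ribosomal RNA methyltransferase of mitochondria, went from 42.8 and 36.9 ppm to 19.1 and 17.8 in M and 23.7 and 24.2 in RE (−1.10, SE 0.14, adjusted p = 0.000974 in E vs. M), and Lrpprc, which stabilizes mitochondrial mRNAs, fell by 0.50 on the log2 scale (adjusted p = 0.0175). Of 10 carriers of adenine nucleotides, phosphate and pyruvate, 1 rose (Ucp2, 0.59 in E vs. M, adjusted p = 0.0089) and none fell in E vs. M and E vs. RE, and none passed in M vs. RE (3 at an unadjusted p below 0.05).

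Among 12 nuclear regulators tested, 3 fell and 3 rose in E vs. M. Ppargc1a, the coactivator PGC-1α that drives mitochondrial biogenesis, was at 0.993 and 1.66 ppm in E, 0.128 and 0.267 in M and 8.64 and 5.25 in RE. The 3 stages did not overlap, with M lowest and RE highest, and all 3 differences passed (−2.26 from E to M, SE 0.39, adjusted p = 0.00324; 4.56 from M to RE, adjusted p = 0.000146; 2.30 from E to RE, adjusted p = 0.00517). Of the 80 nuclear members, 1 rose in M vs. RE and none in E vs. RE, where 17% and 17.2% of all genes tested rose. These counts depend on the fit. When only the M and RE libraries were fitted, 12 members of both genomes were higher and 8 lower in RE, with 56.4% of all genes called. When only E and RE were fitted, 0 were higher and 6 lower, with 19.7% of all genes called. Any link between Ppargc1a and these members was not tested. Ppargc1b fell in E vs. M (−1.01, adjusted p = 0.0233), Gabpa, an ETS factor of respiratory genes, rose (0.80, adjusted p = 0.00207), and Nrf1, which binds the promoters of many subunit genes, did not pass (−0.24, adjusted p = 0.212). Gabpa overlaps Atp5j on the opposite strand by 701 bases. Of 13 oxygen-responsive regulators, 6 fell and 2 rose in E vs. M, and 3 fell and 4 rose in M vs. RE. Those that rose in E vs. M were Vegfa (1.481, adjusted p = 0.000393) and Egln1 (1.117, adjusted p = 0.00124). Both fell in M vs. RE (−2.135, adjusted p = 8.29e-05, and −1.181, adjusted p = 0.0012). Pdk1, which blocks the entry of pyruvate into the citric acid cycle, went from 19.8 and 14.4 ppm in E to 5.11 and 4.65 in M and back to 13.4 and 14.1 in RE (−1.77, adjusted p = 0.000446, and 1.47 in M vs. RE, adjusted p = 0.00129). Lonp1, the matrix protease, fell in E vs. M and was still low in RE (−1.43, adjusted p = 0.00105, and −1.29, adjusted p = 0.00316). Epas1 (HIF-2α) was at 16.2 and 29.9 ppm in E, 5.50 and 6.97 in M and 70.4 and 74.7 in RE (3.53 in M vs. RE, adjusted p = 0.000103).

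Promoters are shown for 5 members whose levels differed in kind across the stages, to set their sequence beside their values. Ndufs6 and Sdhb were lower in M and RE than in E, Uqcrc1 was lower in RE than in M, Ndufv3 was higher in RE than in M, and Cox6a1 overlapped between E and M. The 170 bases before the annotated start are from RefSeq (GRCm38.p6), read 5′ to 3′ on the strand of the gene, with matches to the searched motifs in capitals. Cox6a1 is at chr5:115348959-115349128, minus strand, Sdhb at chr4:140961101-140961270, plus strand, Ndufs6 at chr13:73328483-73328652, minus strand, Uqcrc1 at chr9:108936478-108936647, plus strand and Ndufv3 at chr17:31519945-31520114, plus strand.
Cox6a1: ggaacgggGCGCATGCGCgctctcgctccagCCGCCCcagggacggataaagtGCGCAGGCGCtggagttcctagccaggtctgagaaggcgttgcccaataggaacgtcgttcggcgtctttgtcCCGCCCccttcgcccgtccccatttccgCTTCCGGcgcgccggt
Sdhb: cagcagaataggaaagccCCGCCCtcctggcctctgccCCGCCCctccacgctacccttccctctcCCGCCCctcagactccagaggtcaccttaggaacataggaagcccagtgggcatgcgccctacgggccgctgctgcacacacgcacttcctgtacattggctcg
Ndufs6: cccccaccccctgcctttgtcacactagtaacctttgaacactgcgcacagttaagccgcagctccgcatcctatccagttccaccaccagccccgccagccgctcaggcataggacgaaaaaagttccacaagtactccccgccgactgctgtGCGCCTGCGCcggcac
Uqcrc1: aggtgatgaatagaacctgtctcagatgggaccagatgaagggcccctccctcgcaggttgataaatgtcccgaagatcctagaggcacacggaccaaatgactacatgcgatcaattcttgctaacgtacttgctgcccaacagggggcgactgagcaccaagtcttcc
Ndufv3: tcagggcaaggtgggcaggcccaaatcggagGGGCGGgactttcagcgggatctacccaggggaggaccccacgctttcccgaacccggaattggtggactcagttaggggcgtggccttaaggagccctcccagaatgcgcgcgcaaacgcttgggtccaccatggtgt

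Letters searched on both strands were GCGCA followed by any base and GCGC (an NRF1 site), CCGGAAG (an ETS site, the kind bound by Gabpa), GGGCGG (a GC box), AAGATGGC (a YY1 site) and AAGGTCA (a site of ERR-type nuclear receptors), none of which contains another. Over the whole window of 250 bases before to 50 after the start, 67 nuclear members matched the promoter table. Of these, 17 (25.4%) held the NRF1 letters, against 10.9% of 8813 tested genes with a promoter and 5.19% of all 27025. The YY1 letters were in 14.9% (5.02% of tested genes), the ETS letters in 23.9% (18.6%), the nuclear receptor letters in 11.9% (4.02%) and the GC box in 40.3% (67.7%). In the stretches shown, Cox6a1 holds 2 matches to the NRF1 letters, 2 GC boxes and 1 ETS match near the start, Ndufs6 1 NRF1 match, Sdhb 3 GC boxes, Ndufv3 1 GC box and Uqcrc1 no match. After the start, Uqcrc1 holds 2 NRF1 matches, Sdhb 1 ETS match, Ndufs6 1 YY1 match, Ndufv3 1 GC box and Cox6a1 no match. A match is a run of letters, and binding was not measured.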

How the data were processed

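Whole-transcriptome libraries of EpH4 cells (2 each of E, M and RE) were analysed. The authors mapped unique reads to NCBI m37 with Bowtie and TopHat2 and deposited 1 table of 17428 genes, whose values behave as coverage (signal), the sequenced bases per gene from reads of 50 bases, not as counts. The software and annotation behind those per-gene sums are not given in the sources used here, and edgeR, the authors' test, was not run because it needs counts. No column lacked a sample.

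Each value was divided by its library total, in ppm, with TMM scaling (30% of log ratios and 5% of levels trimmed; factors 0.871 to 1.12), and 13893 genes reached 500 bases in 2 or more libraries. limma 3.58.1 (R 4.3.3) was fitted to log2(ppm + 0.1), all libraries and group only, with a mean-dependent prior and Benjamini-Hochberg adjustment. This scale understates changes of low genes. Transcript length, GC content and shared 50-base stretches came from GENCODE for GRCm38, matched by symbol for 89.9% of genes and all 95 members; length and GC were known for 93.2% of genes tested. On simulated E vs. M data (13803 genes), 86% of 100 genes changed by 1 on the log2 scale and 100% of 100 changed by 2 were called. The simulation had the same dispersion for all genes, changed only genes of higher coverage, and held no library difference that goes with transcript length. Changes smaller than 1, the size of most member changes, were not simulated.

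Members and lists were chosen with earlier results of these data known. Named members were all mitochondrial ones, 12 core subunits, tissue isoforms with counterparts, the lowest and highest, and the DEGs. Per complex, comparison and direction, the 2 largest called changes were also named. From other lists, most genes named had 1 of the 3 smallest adjusted p in a direction and comparison. Not all such genes are named. The values of 1 member are not reported here. Other members, overlapping genes and markers named were chosen after their values were seen. Alternatives were other scaling, filters, pseudocounts (0.025 and 1), thresholds, only the 2 groups compared, array weights, a replicate block, trend removal (spline with 4 degrees of freedom), subunits proper only, each library left out and, added after seeing the data, mitochondrial medians without the 4 highly shared genes. Pairing by replicate number was checked by correlating the deviations of same-numbered libraries.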

Additional observations from a re-analysis of the deposited data

How the results depend on the processing

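Counts below are members called, of 24 (E vs. M), 3 (M vs. RE) and 17 (E vs. RE), and medians are log2 fold changes. Scaling by library totals only gave 56 in E vs. M and 8 in M vs. RE, and medians of −0.76 (nuclear, E vs. M), −0.40 (mitochondrial, E vs. M), 0.25 (nuclear, M vs. RE), 0.35 (mitochondrial, M vs. RE) and −0.041 (mitochondrial, E vs. RE). It moved the median of all genes to −0.29, 0.18 and −0.08 in the 3 comparisons, so that most of these shifts are shared by all genes. A fit of only the 2 groups compared gave 20 in M vs. RE (12 higher and 8 lower) and 6 in E vs. RE. Array weights gave 19 in M vs. RE (10 higher and 9 lower). The shares of all genes called were then 56.4%, 19.7% and 55.3%, against 31.5% (M vs. RE) and 30.1% (E vs. RE) in the reported fit. Removal of the length and GC trend gave 8 in M vs. RE, nuclear medians of −0.072 (E vs. M) and −0.00302 (E vs. RE) and mitochondrial medians of 0.24, −0.032 and 0.25, and it turned Cox4i1 (0.29) and Cox6a1 (0.43) in E vs. M. An adjusted p below 0.01 left 10, 0 and 5, and the DEG rule 2, 0 and 2; the cause was not tested for the other settings.

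Leaving out 1 library at a time gave 3 to 69 called from E to M, 0 to 20 from M to RE and 1 to 56 from E to RE, while all genes called went between 19.6% and 63.0%, 12.1% and 56.3%, and 6.16% and 56.0%. The nuclear median went between −0.68 and −0.21 (E vs. M) and between −0.56 and −0.18 (E vs. RE), both ends of each from leaving out an E library, and the mitochondrial one between −0.22 and −0.035 (E vs. M). A stage left with 1 library is assumed to vary like the others.

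With the replicate number as a block, 26, 3 and 15 members were called, and the medians did not change. Correlations of same-numbered deviations were 0.27 (E and M), 0.06 (E and RE) and 0.12 (M and RE). With 2 libraries a stage, they cannot tell whether same-numbered samples share a batch, and the labels give only the number. The block together with trend removal gave 15 in E vs. M and 8 in M vs. RE, with medians as for trend removal alone and Cox6a1 at 0.43. The other settings kept these results on their side. Over the 40 named members tested, 1953 values kept their side of the threshold, 87 lost a call, 91 gained one and 3 turned. Differences between stages under the floor were not detectable, and both depth and the 2 libraries a stage limit precision.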
